A study of Homo sapiens with 12 samples.

Results

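The genes described here are 9 antioxidant and detoxification genes under the control of the transcription factor NRF2, namely NQO1, HMOX1, GCLC, GCLM, TXNRD1, SRXN1, AKR1B10, AKR1C1 and AKR1C3. They were chosen by name, as well-known targets of NRF2, from the 34595 genes with a value, with earlier results of these data known. Counts of members beside the shares of all tested genes are therefore a description. KATO-III, SNU-216 and SNU-601, established gastric cancer lines, were each sorted into a CD133+ and a CD133- population, and RNA of these 6 populations was hybridised to Illumina HT-12 v3 BeadChips, 2 arrays per population and 12 in all. CD133, the product of PROM1, is a surface protein used as a marker of cancer stem cells, and the study asked which genes differ with it. All 3 lines were untreated and unmodified, and were kept in RPMI1640 medium with calf serum. The CD133+ population held the brightest 10% of the stained cells and the CD133- population the dimmest 6%, so the cells between these gates were not measured. Each line is 1 cultured line, and the sources do not say whether both arrays of a population came from separate sorts, so the p-values cover the spread between arrays, which may be technical.

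NRF2, encoded by NFE2L2, is held at a low level in unstressed cells by KEAP1, an adaptor that brings it to a CUL3 ubiquitin ligase for degradation. Oxidants and electrophiles modify KEAP1, and NRF2 then accumulates, pairs with a small MAF protein and binds antioxidant response elements, where BACH1 can compete with it. Its targets make glutathione, reduce thioredoxin and peroxiredoxins, break down heme and reduce quinones and aldehydes. In epithelial cancers, lasting NRF2 activity is known for protecting cells from oxidants and drugs.

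Promoter windows are shown for GCLM and TXNRD1, because these are the 2 members whose windows hold the core of the antioxidant response element. They were also chosen because they passed the test in opposite directions within every line, as described further on. The GCLM calls in SNU-216 and SNU-601 were near the threshold. With each line fitted on its own 4 arrays, GCLM passed in no line and TXNRD1 did not pass in SNU-601. A window runs from 250 bases before to 50 bases after an annotated start, 300 bases in all, taken from RefSeq on GRCh38.p14. The core searched was TGACNNNGC on both strands, and it is printed in capitals. On the other strand it reads as its reverse complement. The windows lie at chr1:93909381-93909680 on the minus strand for GCLM, and at chr12:104215529-104215828 and chr12:104286782-104287081 on the plus strand for both starts of TXNRD1.
GCLM: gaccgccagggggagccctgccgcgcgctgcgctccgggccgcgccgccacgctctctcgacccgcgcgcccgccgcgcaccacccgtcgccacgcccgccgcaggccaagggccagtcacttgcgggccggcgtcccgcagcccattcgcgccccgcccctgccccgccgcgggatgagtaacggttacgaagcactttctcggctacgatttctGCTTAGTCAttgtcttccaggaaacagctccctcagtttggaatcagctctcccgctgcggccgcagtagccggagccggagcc
TXNRD1 first start: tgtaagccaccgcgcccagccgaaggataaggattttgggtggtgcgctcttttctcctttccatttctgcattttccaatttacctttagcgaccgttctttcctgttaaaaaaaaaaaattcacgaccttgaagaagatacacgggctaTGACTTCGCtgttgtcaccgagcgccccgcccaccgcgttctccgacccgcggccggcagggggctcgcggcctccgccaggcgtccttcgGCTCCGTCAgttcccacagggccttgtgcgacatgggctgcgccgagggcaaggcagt
TXNRD1 second start: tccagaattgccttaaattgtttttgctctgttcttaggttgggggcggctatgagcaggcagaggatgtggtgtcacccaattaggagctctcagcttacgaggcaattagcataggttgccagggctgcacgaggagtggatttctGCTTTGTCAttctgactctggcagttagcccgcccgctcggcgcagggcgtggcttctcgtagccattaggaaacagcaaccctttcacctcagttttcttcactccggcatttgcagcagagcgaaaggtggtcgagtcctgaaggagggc
The GCLM core, TGACTAAGC on the other strand, lies at positions -34 to -26 from the start. In the first TXNRD1 window TGACTTCGC lies at -99 to -91, and TGACGGAGC on the other strand at -8 to 1. In the second, TGACAAAGC lies on the other strand at -102 to -94. Of all 35116 such windows, 13.3% held the core. The table held 9 windows for 7 of the 9 members, and the windows of NQO1, GCLC, SRXN1, AKR1C1 and AKR1C3 did not hold these letters. Bases outside the windows were not searched, so a window without a match does not show that the gene lacks an element. A match is a description of the sequence, and binding was not measured.

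Values are the deposited intensities, quantile-normalized by the authors and background-subtracted, with no unit of mass or copy number. An intensity is comparable for 1 gene between arrays, and not between genes. Intensities below a floor of 32.7 cannot be ordered and were set to it before log2 was taken. Tests covered genes that passed the floor on 2 or more of the arrays, which were 8 of the 9 members and 20147 genes in all. AKR1C1 lay below the floor on all 12 arrays, with readings from -25.6 to 0.808, so it has no level here. Differences were tested with limma, and a gene passed at a Benjamini-Hochberg adjusted p of 0.05 over all tested genes. In bulk RNA, fewer cells that express a gene and less RNA per cell cannot be told apart.

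The sort was visible in PROM1 RNA, which was higher in the CD133+ cells by 1.10 in KATO-III, 2.02 in SNU-216 and 1.85 in SNU-601 on the log2 scale. Of 8 gastric epithelial markers examined, 7 were above the floor on all 12 arrays, with EPCAM between 9423 and 14168, and TFF1, a trefoil peptide, was below it on all 4 arrays of SNU-216, as AKR1B10 was. The summed intensity of the 8 was 54827 to 56247 in CD133+ and 63949 to 65081 in CD133- cells of KATO-III, 49306 to 51953 and 47581 to 48190 in those of SNU-216, and 71399 to 71914 and 79034 to 81217 in those of SNU-601. Such a sum is ruled by the brightest probes and is not a level of the 8 markers as a group. In SNU-601, TFF1 alone had means of 8026 in CD133+ and 15012 in CD133- cells, while EPCAM had 12287 and 12071. Taken 1 by 1, 3 passed in KATO-III, all lower in CD133+ cells. In SNU-216 1 was higher and 2 lower, and in SNU-601 2 were lower. Among all tested genes, 39.3% passed in KATO-III, 28.6% in SNU-216 and 16.4% in SNU-601. TFF1 was lower in CD133+ cells of KATO-III (log2 difference -1.79) and SNU-601 (-0.90), the directions of AKR1B10, and CDH1, which encodes E-cadherin, differed by -0.70, 0.30 and -0.255 in KATO-III, SNU-216 and SNU-601, the directions of TXNRD1. None of the other markers had the directions of TXNRD1. In the same order of lines, MUC1 differed by -0.25, -0.385 and -0.06, KRT18 by -0.01, -0.39 and 0.01, and CLDN4 by -0.28, -0.90 and 0.155. EPCAM differed by -0.13, 0.01 and 0.025, KRT8 by -0.02, 0 and 0.02, and KRT19 by 0.09, 0.11 and 0.02. The part of these markers in the members' differences was not tested. Of 9 markers of other cell types, 5 (PTPRC, CD3E, PECAM1, VWF and DCN) were below the floor on all arrays. The summed intensity of these 9 was 962 to 968 in CD133+ and 1254 to 1284 in CD133- cells of KATO-III, and 74 to 276 in the other populations. In KATO-III this sum was mostly CD14, a receptor for lipopolysaccharide, at 846 in CD133+ and 1222 in CD133- cells. Its part in the KATO-III differences was not tested. An array had between 16320 and 16474 genes above the floor.

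Within the lines, the members did not move as 1 group. In KATO-III, GCLC and GCLM were higher in CD133+ cells and HMOX1, TXNRD1, AKR1B10 and AKR1C3 were lower. In SNU-216, NQO1, HMOX1, TXNRD1, SRXN1 and AKR1C3 were higher in CD133+ cells and GCLM was lower. In SNU-601, GCLM was higher in CD133+ cells and TXNRD1, SRXN1 and AKR1B10 were lower. In KATO-III 6 of 8 members passed, 2 higher and 4 lower, where 39.3% of all tested genes passed, 18.7% higher and 20.6% lower. In SNU-216 it was 6 of 8, 5 higher and 1 lower, where 28.6% of all tested genes passed, 14.6% higher and 14% lower. In SNU-601 it was 4 of 8, 1 higher and 3 lower, where 16.4% of all tested genes passed, 8.59% higher and 7.78% lower. The median log2 difference of the 8 members was -0.27 in KATO-III, 0.39 in SNU-216 and -0.18 in SNU-601, beside a median of 0 over all tested genes in each line.

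**Figure D1:**
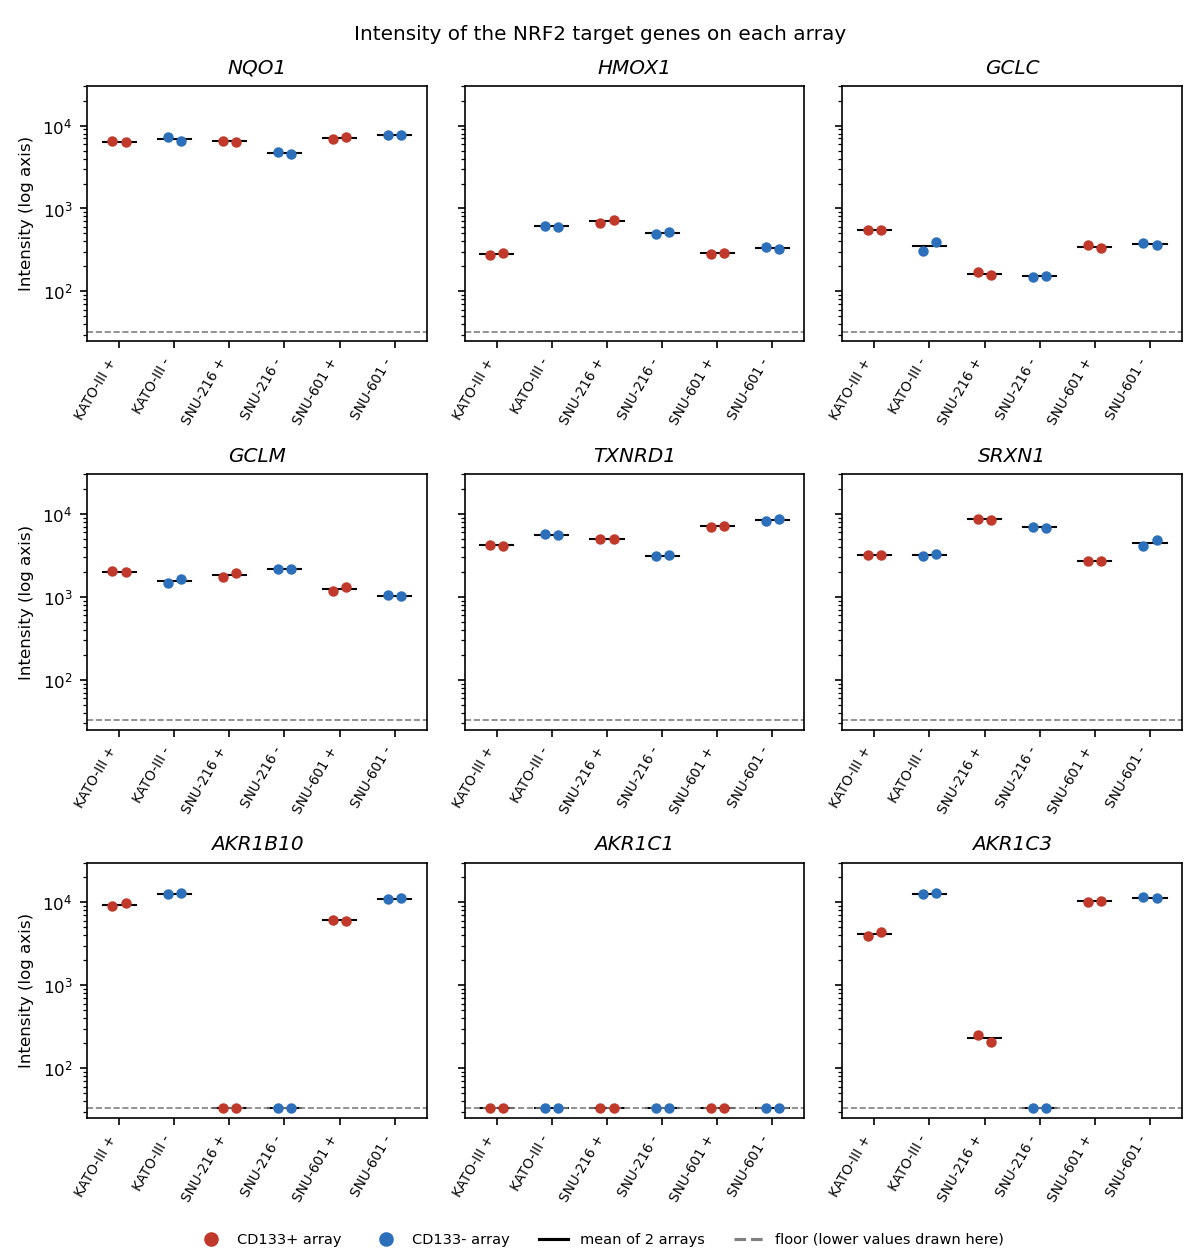
Intensity of the 9 NRF2 target genes (vertical, log axis, no unit) in the 6 sorted populations (horizontal, + for CD133+ and - for CD133-), with 1 point per array and a line at the mean of 2 arrays. Values below the dashed floor of 32.7 are drawn on it. AKR1B10 and AKR1C3 lie at means of 12677 and 12717 in KATO-III CD133- cells, AKR1B10 is at the floor in both SNU-216 populations, and AKR1C1 is at the floor on all 12 arrays.

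GCLC and GCLM encode the catalytic and the modifier subunit of glutamate-cysteine ligase, the enzyme of the rate-limiting step of glutathione synthesis. For GCLC, KATO-III read 545 and 547 on the CD133+ arrays and 308 and 390.4 on the CD133- arrays. SNU-216 read 170.35 and 158 in CD133+ and 151 and 152 in CD133- cells, and SNU-601 read 359 and 336 in CD133+ and 383 and 361 in CD133- cells. The fractions were apart in KATO-III, where GCLC was 1.57-fold higher in CD133+ cells (log2 difference 0.65, SE 0.113, adjusted p = 0.00169). The 2 CD133- arrays of KATO-III differed more from each other than any other pair of GCLC arrays. The differences in SNU-216 (log2 0.12, 95% confidence interval -0.14 to 0.37) and SNU-601 (-0.10, -0.36 to 0.16) did not pass. Both fractions of SNU-216 lay below every array of the other lines.

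GCLM, the modifier subunit, moved otherwise. KATO-III read 2030.3 and 1991 in CD133+ and 1452 and 1635 in CD133- cells, SNU-216 read 1745 and 1922 in CD133+ and 2172 and 2159 in CD133- cells, and SNU-601 read 1193 and 1318 in CD133+ and 1040.4 and 1027 in CD133- cells. No array of 1 fraction overlapped the other fraction in any line. GCLM was higher in CD133+ cells by 0.38 on the log2 scale in KATO-III (adjusted p = 0.00283) and by 0.28 in SNU-601 (adjusted p = 0.0319), and lower in SNU-216 (-0.24, adjusted p = 0.0356), with an SE of 0.0727. The calls in SNU-216 and SNU-601 were near the threshold, and each was lost in 7 of the 12 fits that left out 1 array. In SNU-216 this was so without either KATO-III CD133+ array, either SNU-216 CD133- array, either SNU-601 CD133- array or replicate 1 of SNU-216 CD133+ (adjusted p from 0.0548 to 0.206), and in SNU-601 without either KATO-III CD133+ array, either SNU-216 CD133- array, either SNU-601 CD133- array or replicate 2 of SNU-601 CD133+ (0.0538 to 0.17).

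TXNRD1 encodes the cytosolic thioredoxin reductase, a selenoprotein that uses NADPH to reduce thioredoxin. Its intensity in KATO-III was 4239 and 4112 in CD133+ and 5695 and 5540 in CD133- cells. In SNU-216 it was 5053 and 4999 in CD133+ and 3116 and 3163 in CD133- cells, and in SNU-601 it was 7019 and 7200.5 in CD133+ and 8308 and 8644 in CD133- cells. The fractions were apart in all 3 lines, with SNU-216 the opposite way from the other two. TXNRD1 was 1.60-fold higher in CD133+ cells of SNU-216 (log2 0.68, adjusted p = 8.34e-06), 1.34-fold lower in KATO-III (-0.43, adjusted p = 4.33e-05) and 1.19-fold lower in SNU-601 (-0.25, adjusted p = 0.00309), with an SE of 0.0388. GCLM and TXNRD1 passed in all 3 lines, which 4.97% of all tested genes did, and in opposite directions in each line. For GCLM, the calls in SNU-216 and SNU-601 were the unsteady ones described above. With each line fitted on its own 4 arrays, GCLM also did not pass in KATO-III (adjusted p = 0.0617), and thus in no line. TXNRD1 did not pass in SNU-601 in that fit (0.0885). The promoter windows of both genes were printed partly for their opposite directions, and the part of the core in these directions was not tested.

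SRXN1 encodes sulfiredoxin, which restores over-oxidized peroxiredoxins. KATO-III read 3155 and 3242 in CD133+ and 3119.9 and 3332 in CD133- cells, which overlapped. SNU-216 read 8773 and 8450.5 in CD133+ and 6994 and 6798 in CD133- cells, and SNU-601 read 2712 and 2681 in CD133+ and 4110.4 and 4787 in CD133- cells. The direction in SNU-601 was thus the reverse of that in SNU-216. SRXN1 was 1.25-fold higher in CD133+ cells of SNU-216 (log2 0.32, adjusted p = 0.00741) and 1.65-fold lower in those of SNU-601 (-0.72, adjusted p = 0.000421), and in KATO-III the difference was -0.01 (-0.17 to 0.14), with an SE of 0.0683. The SNU-216 call was lost without replicate 1 of its CD133+ arrays (adjusted p = 0.0549) or replicate 2 of its CD133- arrays (0.0516).

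NQO1 encodes a quinone reductase that turns quinones to hydroquinones and is often used as a readout of NRF2 activity. It read 6434 and 6345 in CD133+ and 7260.2 and 6556 in CD133- cells of KATO-III. In SNU-216 it read 6532 and 6328 in CD133+ and 4798 and 4535 in CD133- cells, and in SNU-601 it read 6820.2 and 7278 in CD133+ and 7636 and 7749 in CD133- cells. The SNU-216 CD133- arrays were the lowest of the 12, and NQO1 was 1.38-fold higher in CD133+ cells of that line (log2 0.46, SE 0.0574, adjusted p = 0.000445). In KATO-III (-0.11, -0.24 to 0.02) and SNU-601 (-0.13, -0.26 to 0.004) it did not pass. Without replicate 2 of KATO-III CD133- the difference there was -0.18 and passed (adjusted p = 0.0444).

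HMOX1 encodes heme oxygenase 1, which breaks heme down to biliverdin, iron and carbon monoxide and is also under repression by BACH1. In KATO-III it read 278 and 292 in CD133+ and 609 and 604 in CD133- cells. SNU-216 read 676 and 721 in CD133+ and 486 and 517 in CD133- cells, and SNU-601 read 284 and 289 in CD133+ and 342 and 325 in CD133- cells. HMOX1 was 2.13-fold lower in CD133+ cells of KATO-III (log2 -1.09, SE 0.0679, adjusted p = 5.65e-06) and 1.39-fold higher in those of SNU-216 (0.48, adjusted p = 0.00091). Its difference in SNU-601 was -0.22 (-0.37 to -0.07) with an adjusted p of 0.0602, and it passed with a floor of 100 (0.0359) or with no filter on low genes (0.0407).

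AKR1B10 encodes an aldo-keto reductase that reduces retinal and lipid aldehydes, and its RNA is known to be high in NRF2-active human tumours. KATO-III read 9093 and 9688 in CD133+ and 12444 and 12911 in CD133- cells, and SNU-601 read 6166 and 5964 in CD133+ and 10960 and 11280 in CD133- cells. All 4 arrays of SNU-216 lay below the floor, with readings from -25.5 to 6.15, so the line gives no difference between the fractions. AKR1B10 was lower in CD133+ cells in both lines that expressed it, 1.35-fold in KATO-III (log2 -0.43, adjusted p = 0.000109) and 1.83-fold in SNU-601 (-0.87, adjusted p = 5.25e-05), with an SE of 0.0465. This SE pools the spread of all 6 populations, and the 4 SNU-216 arrays, set to the floor, added none. The SE and p-values of AKR1B10 may therefore be too small. With an offset of 100 added in place of the floor, which gives weight to readings around 0, SNU-216 showed a difference of 0.36 (adjusted p = 0.00281).

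AKR1C3, an aldo-keto reductase that acts on steroids and prostaglandins, had population means over a span as wide as that of AKR1B10, with both cut by the floor. In KATO-III it read 3874 and 4407.5 in CD133+ and 12608 and 12826 in CD133- cells, while the readings were 10115 and 10442 in CD133+ and 11560 and 11229 in CD133- cells of SNU-601. SNU-216 read 250.1 and 208 in CD133+ cells, and 21.6 and 21.9 in CD133- cells, below the floor. AKR1C3 was 3.08-fold lower in CD133+ cells of KATO-III (log2 -1.62, SE 0.087, adjusted p = 2.46e-06) and at least 6.97-fold higher in those of SNU-216 (adjusted p = 3.36e-07). In SNU-601 the difference was -0.15 (-0.35 to 0.05) and did not pass. The SNU-216 CD133- arrays, set to the floor, added no spread to the SE, so the p-values of AKR1C3 may be too small.

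The AKR1C genes are neighbours with similar sequences, so a probe for 1 of them may also bind RNA of another, and the sequences of the probes were not used here. Whether the AKR1C1 readings below the floor came from its probe was not tested. AKR1C2 read 30.4 and 34.2 in CD133+ and 636 and 681 in CD133- cells of KATO-III, with 1 of the 2 CD133+ arrays above the floor and the other set to it (log2 -4.30, a lower limit in size, adjusted p = 8.83e-08). AKR1C4 read 427 and 395 in CD133+ and 1796 and 1791 in CD133- cells of KATO-III (log2 -2.13, adjusted p = 1.7e-06). Both had the direction of AKR1C3 in that line. In SNU-601 their CD133+ and CD133- means were 126 and 134 for AKR1C2 and 1048 and 1109.7 for AKR1C4, and neither difference passed (-0.08 for both). In SNU-216, AKR1C2 was below the floor on all 4 arrays and AKR1C4 above it on 1 (39.7, CD133+).

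**Figure D2:**
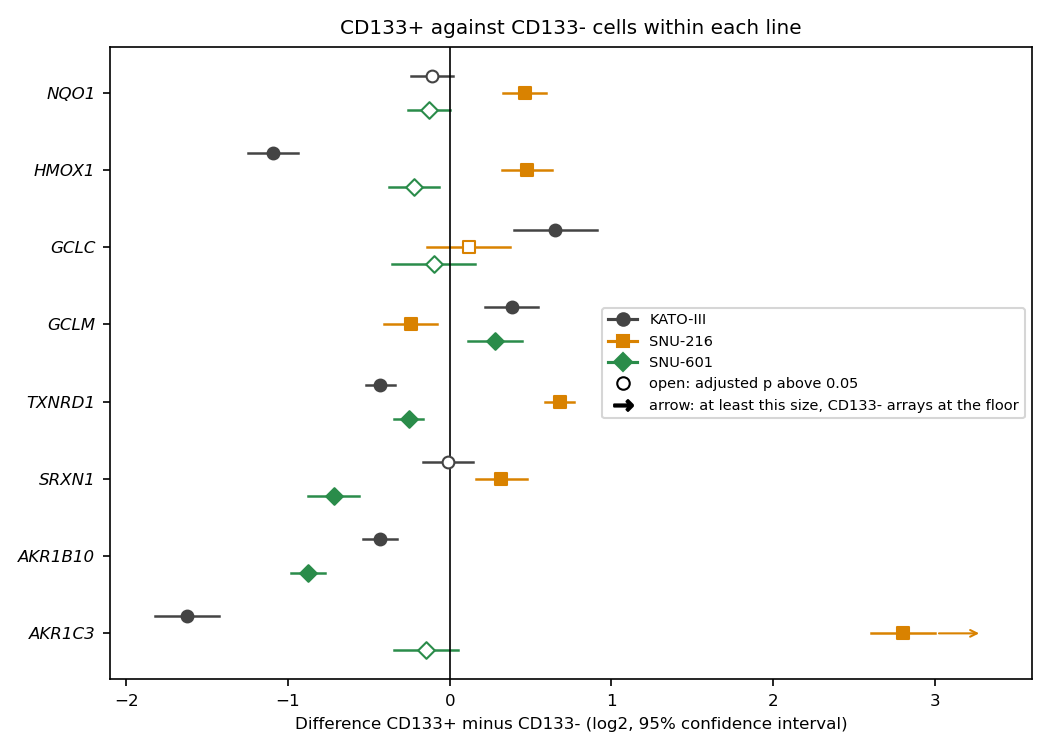
Difference between CD133+ and CD133- cells (horizontal, log2, with its 95% confidence interval) for the 8 tested members within KATO-III (circles), SNU-216 (squares) and SNU-601 (diamonds). Filled symbols passed at an adjusted p of 0.05. SNU-216 lies to the right of both other lines for NQO1, HMOX1, TXNRD1, SRXN1 and AKR1C3 and to the left of them for GCLM. AKR1B10 has no SNU-216 symbol because all 4 arrays were below the floor, and the AKR1C3 arrow marks a lower limit.

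Within KATO-III, SNU-216 and SNU-601, 39.3%, 28.6% and 16.4% of all tested genes passed. Over the 8 members and 3 lines, 16 of 24 differences passed, 8 higher and 8 lower in CD133+ cells. With each line fitted on its own 4 arrays, 6 of these no longer passed (adjusted p from 0.0617 to 0.158), namely GCLC and GCLM in KATO-III, GCLM in SNU-216, and GCLM, TXNRD1 and SRXN1 in SNU-601. HMOX1, GCLM, TXNRD1, SRXN1 and AKR1C3, 5 of 8 members, passed as higher in at least 1 line and lower in another, which 10.9% of all tested genes did. This count ranged from 3 to 6 when 1 array was left out, and was 3 without replicate 1 of SNU-216 CD133+ or replicate 2 of SNU-216 CD133-. The direct test of whether the difference between the fractions varied with the line, an F-test of the interaction, was passed by all 8 members, where 44.4% of all tested genes passed. Adjusted p ranged from 7.29e-07 for AKR1C3 to 0.0108 for GCLC. For AKR1B10 the SNU-216 term of this test was set by the floor.

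Over all lines, with the line as a block, 0 of 8 members passed, where 4.73% of all tested genes passed. The log2 differences were 0.34 for AKR1C3 (-0.86 to 1.55), 0.22 for GCLC (-0.06 to 0.50), 0.14 for GCLM, 0.075 for NQO1, -0.001 for TXNRD1, -0.14 for SRXN1, -0.28 for HMOX1 and -0.44 for AKR1B10. Before adjustment, 1 member was under 0.05, AKR1B10, with an adjusted p of 0.0565 from limma. It was lower in CD133+ cells on all arrays of both lines that expressed it, and its SNU-216 part of this difference was set by the floor. AKR1B10 passed with a floor of 100 (0.0465). It did not pass with the arrays of a population averaged (adjusted p = 0.796) or with an estimated correlation between them (0.236). On the signal-to-noise ratio, the difference of the 6 CD133+ and 6 CD133- means over the sum of their SDs on the linear scale, the members ranged from -0.29 for AKR1C3 to 0.22 for GCLC. None of the 9 passed the thresholds of 1 and -1 that the study's methods use, beside 0.558% of genes above 1 and 0.402% below -1. With the mean of each line taken out first, AKR1B10 reached -1.19. This step changes the SDs of all genes, so the shares above do not apply to it. The share of all genes past -1 in this setting is not given.

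Between the lines, the largest differences of members were those of AKR1B10, AKR1C3 and GCLC, all lowest in SNU-216. Averaged over both fractions, AKR1B10 was at least 334-fold higher in KATO-III and at least 251-fold higher in SNU-601 than in SNU-216 (adjusted p = 4.2e-14 and 3.78e-14). AKR1C3 was higher in these lines by 6.39 and 6.97 in mean log2 level (1.4e-12 and 8.53e-13), with the 2 CD133- arrays of SNU-216 set to the floor. Arrays set to the floor added no spread, so the p-values of AKR1B10 and AKR1C3 may be too small. GCLC was 2.76-fold higher in KATO-III (1.92e-07) and 2.28-fold higher in SNU-601 (8.55e-07) than in SNU-216. SNU-216 had the least RNA of NQO1, GCLC, TXNRD1, AKR1B10 and AKR1C3 by the mean of its fractions, and the most of HMOX1, GCLM and SRXN1.

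SRXN1 was 2.40-fold higher in SNU-216 than in KATO-III and 2.23-fold higher than in SNU-601 (adjusted p = 1.5e-08 and 2.78e-08). HMOX1 was higher in SNU-216 by 0.51 against KATO-III and by 0.94 against SNU-601 on the log2 scale (1.04e-05 and 1.2e-07). TXNRD1 was highest in SNU-601, by 0.68 against KATO-III and 0.97 against SNU-216 (3.47e-08 and 1.82e-09). GCLM was lowest in SNU-601, by 0.63 against KATO-III and 0.81 against SNU-216. All 8 members passed between KATO-III and SNU-216, where 62% of all tested genes passed, and between SNU-216 and SNU-601, where 56.5% passed. Between KATO-III and SNU-601 7 of 8 passed, where 58.6% passed, and SRXN1 was the exception (-0.11, adjusted p = 0.088). It passed without replicate 1 of SNU-601 CD133- (0.00525), and GCLM did not pass between KATO-III and SNU-216 without replicate 2 of SNU-216 CD133+ (0.0537).

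In the order of the 6 populations, TXNRD1 was the 1 member above the floor throughout for which every pair of neighbours passed. It fell from SNU-601 CD133- through SNU-601 CD133+, KATO-III CD133-, SNU-216 CD133+ and KATO-III CD133+ to SNU-216 CD133- (means 8476, 7109.7, 5617, 5026, 4175 and 3139.7, SDs 33.3 to 237, n = 2 each). NQO1 had the same order, with means of 7693, 7049, 6908, 6430.3, 6389.6 and 4666.5, and only its last step passed (adjusted p = 9.9e-05). HMOX1 ran from SNU-216 CD133+ (699) through KATO-III CD133- (607), SNU-216 CD133- (502) and SNU-601 CD133- (334) to SNU-601 CD133+ (287) and KATO-III CD133+ (285), and the last 2 steps did not pass. GCLC was highest in KATO-III CD133+ (546), followed by SNU-601 CD133-, KATO-III CD133- and SNU-601 CD133+ (372, 349 and 348), which did not differ from each neighbour beyond their spread, and by SNU-216 CD133+ and CD133- (164 and 151), which did not either.

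GCLM was highest in SNU-216 CD133-, KATO-III CD133+ and SNU-216 CD133+ (2165, 2011 and 1833), whose neighbours did not pass, and then fell with each step to KATO-III CD133- (1543.5), SNU-601 CD133+ (1255) and SNU-601 CD133- (1034). SRXN1 fell from SNU-216 CD133+ (8612) through SNU-216 CD133- (6896) and SNU-601 CD133- (4449) to KATO-III CD133- and CD133+ (3226 and 3198.5), which did not pass, and SNU-601 CD133+ (2697). AKR1B10 and AKR1C3 were both highest in KATO-III CD133- (12677 and 12717). AKR1B10 then fell with every step to SNU-601 CD133-, KATO-III CD133+ and SNU-601 CD133+ (11120, 9390.5 and 6065), and AKR1C3 did not differ beyond the spread between KATO-III CD133-, SNU-601 CD133- (11395) and SNU-601 CD133+ (10278). Of all neighbouring pairs 14 did not pass, apart from SNU-216 CD133+ and CD133- for AKR1B10, which were both below the floor. Over the 15 pairs of populations, 47.9% of the tests of all genes passed.

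The members were compared by the root mean square (RMS) difference of log2 levels after each gene was centred on its mean over the 12 arrays. The RMS is not scaled to the span of a gene, so members with narrow spans have small values with each other whatever their directions. The smallest values between members were 0.28 for NQO1 and TXNRD1, 0.475 for HMOX1 and SRXN1 and 0.516 for HMOX1 and GCLM. HMOX1 and GCLM still differed between the fractions in opposite directions in each line (-1.09 and 0.38 in KATO-III, 0.48 and -0.24 in SNU-216, -0.22 and 0.28 in SNU-601). Among all tested genes, AKR1B10 (population means over a span of 8.60 log2) was closest to TFF3 (0.157) and TFF2 (0.324), which encode secreted trefoil peptides of mucous epithelium, and to GCNT3 (0.328), a mucin-type glycosyltransferase. AKR1C3 was closest to CEACAM1 (0.62), CEACAM6 (0.647) and AGR2 (0.674), cell surface adhesion proteins and a disulfide isomerase of secretory cells. These wide spans come from the low readings of both members in SNU-216.

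The nearest genes of the members with a narrower span were GPRC5A, SNORD12 and HS.529631 for HMOX1 (0.139 to 0.189), ZNF232, ATP1B1 and KRR1 for GCLC (0.0898 to 0.158), and ENY2, NIP7 and PDPK1 for GCLM (0.0681 to 0.0928). They were MAD2L1BP, LOC644914 and LOC648390 for TXNRD1 (0.0976 to 0.13) and RBM12B, SMURF2 and ZCCHC3 for SRXN1 (0.136 to 0.154). NQO1 spanned 0.72 on the log2 scale, too little to rank likeness among all tested genes. The 12 arrays of each comparison were the same, and the values are a description.

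NFE2L2, the gene of NRF2 itself, read 3720 and 4022 in CD133+ and 1967 and 1794 in CD133- cells of KATO-III. In SNU-216 it read 2191 and 2274 in CD133+ and 1692 and 1544 in CD133- cells, and in SNU-601 it read 2754.5 and 2548 in CD133+ and 2619 and 2579.5 in CD133- cells. It was 2.06-fold higher in CD133+ cells of KATO-III (log2 1.04, adjusted p = 7.63e-06), and 1.38-fold higher in those of SNU-216 (0.47, adjusted p = 0.00112). Beside this, 2 of the 8 tested members were higher and 4 lower in KATO-III, and 5 were higher and 1 lower in SNU-216. Of all tested genes, 18.7% were higher and 20.6% lower in KATO-III, and 14.6% higher and 14% lower in SNU-216. The part of NFE2L2 RNA in the members' differences was not tested. In SNU-601 the NFE2L2 difference was 0.03 (adjusted p = 0.924). NRF2 is controlled mainly through its protein, which was not measured.

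KEAP1 was 1.47-fold lower in CD133+ cells of SNU-216 (mean 886 ± 1.26 against 1307 ± 123, SD, n = 2 each, adjusted p = 0.00067), and its differences in KATO-III (log2 0.08) and SNU-601 (0.09) did not pass. The interaction was passed by NFE2L2 (adjusted p = 0.000179) and KEAP1 (0.00151). SQSTM1, an autophagy receptor that binds KEAP1, was lower in CD133+ cells of KATO-III (-0.26, adjusted p = 0.018) and did not pass elsewhere (-0.11 and -0.02). BACH1 was above the floor on 1 array (33.4) and was not tested.

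Of the other genes of the pathway, 8 lists held 93, of which 92 had a value and 84 were tested. Within KATO-III 41 passed, 23 higher and 18 lower in CD133+ cells (48.8%, beside 39.3% of all tested genes). Within SNU-216 35 passed, 22 higher and 13 lower (41.7% beside 28.6%), and within SNU-601 15 passed, 7 higher and 8 lower (17.9% beside 16.4%, a share near that of all genes). Over the lines 6 passed, all higher (7.14% beside 4.73%), and none of these 6 passed with the arrays of a population averaged (adjusted p = 0.796 for each) or with an estimated correlation between them (adjusted p from 0.149 to 0.306). The counts by list that follow stand beside the same shares, 39.3% in KATO-III (18.7% higher and 20.6% lower), 28.6% in SNU-216 (14.6% and 14%) and 16.4% in SNU-601 (8.59% and 7.78%).

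Among the 12 tested regulators of NRF2, 6, 5 and 3 passed within KATO-III, SNU-216 and SNU-601. NFE2L3, a related factor of the same family, was higher in CD133+ cells by 1.22 in KATO-III (adjusted p = 1.03e-05), 0.36 in SNU-216 (0.012) and 0.58 in SNU-601 (0.00252), and over the lines (0.72, adjusted p = 0.0155, and adjusted p = 0.153 with an estimated correlation). In SNU-216 the largest difference was that of RBX1, the RING subunit of the ligase (0.70, adjusted p = 0.00687). PALB2, which can bind KEAP1, was lower in CD133+ cells of SNU-601 (-0.42, adjusted p = 0.0397). Between lines, NFE2L1 (1.45) and MAFF (0.70) were higher in KATO-III than in SNU-216, and BTRC, a ubiquitin ligase adaptor, was lower in both than in SNU-601 (-1.79 from KATO-III and -1.88 from SNU-216). MAFK was lower in KATO-III than in SNU-601 (-0.73), and MAFF lower in SNU-216 than in SNU-601 (-1.33).

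**Figure D3:**
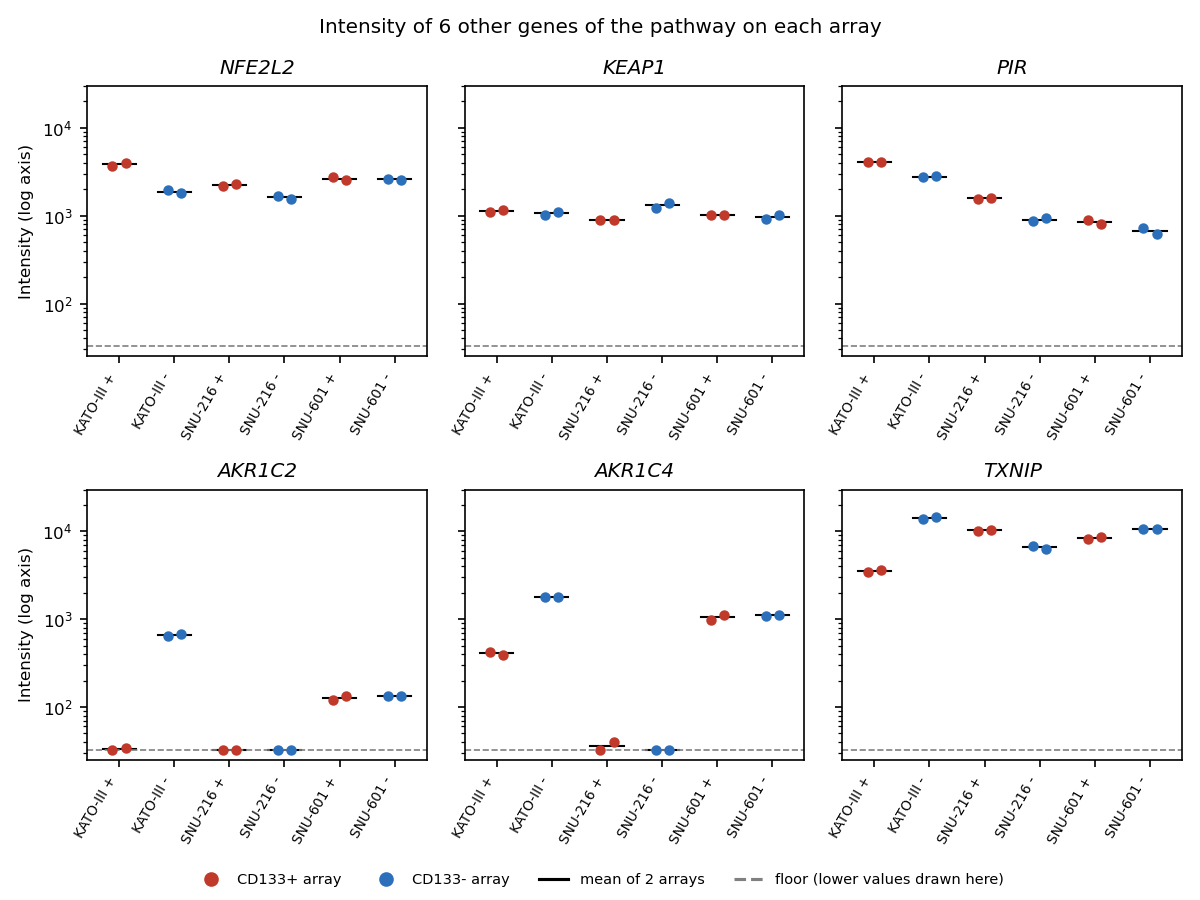
Intensity of NFE2L2, KEAP1, PIR, AKR1C2, AKR1C4 and TXNIP (vertical, log axis, no unit) in the 6 populations (horizontal), 1 point per array with a line at the mean of 2 arrays, and values below the floor of 32.7 drawn on the dashed line. PIR is higher on the CD133+ than on the CD133- arrays of each line, AKR1C2 and AKR1C4 are highest in KATO-III CD133- cells, and TXNIP is lowest in KATO-III CD133+ cells.

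In the glutathione system, 8 of 14 tested genes passed in KATO-III, 6 of them higher in CD133+ cells and 2 lower. The largest were GGCT (0.73, adjusted p = 9.6e-05), of glutathione breakdown, and GSR, the glutathione reductase (0.67, adjusted p = 0.000102). In SNU-216 7 passed, with GPX3 higher (1.63, from means of 62.1 to 189, adjusted p = 0.000251) and GPX1 lower (-0.60, adjusted p = 0.00153), both glutathione peroxidases. In SNU-601 GLRX, a glutaredoxin, was the 1 that passed (0.25, adjusted p = 0.0215). GSR (0.41, adjusted p = 0.0334) and GLRX (0.37, adjusted p = 0.0137) passed over the lines, and did not with an estimated correlation (adjusted p = 0.233 and 0.191).

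Between lines, GPX2, an epithelial glutathione peroxidase, was low in SNU-216, as AKR1B10 was, with means of 15816 to 18012 in KATO-III and SNU-601 and 57.7 and 67.5 in SNU-216, a 292-fold and a 267-fold difference (adjusted p = 3.68e-10 and 4.25e-10). CBS, of the transsulfuration route to cysteine, went the other way. It was above the floor in SNU-216 alone (8547 and 9673.5), at least 278-fold higher than in either other line. GLRX2 (0.78) and SLC3A2, a subunit of amino acid transporters (0.67), were higher in KATO-III than in SNU-601.

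In the thioredoxin and peroxiredoxin list, 8 of 13 tested genes passed in KATO-III, 6 of them lower in CD133+ cells and 2 higher. In SNU-216 6 passed, 5 of them higher and 1 lower, and in SNU-601 2 passed. TXNIP, which binds and inhibits thioredoxin, had the directions of TXNRD1 in all 3 lines, with -1.99 in KATO-III (adjusted p = 8.83e-08), 0.66 in SNU-216 (4.64e-05) and -0.34 in SNU-601 (0.00347). TXNL1 was higher in CD133+ cells of KATO-III (1.96, adjusted p = 9.03e-05), SESN1, a sestrin, in those of SNU-216 (0.82, adjusted p = 0.00371), and PRDX4 in those of SNU-601 (0.21, adjusted p = 0.00967). Between lines, TXNL1 was higher in KATO-III than in SNU-216 (2.17) and SNU-601 (2.20), with 1 array of each of the latter above the floor. SESN1 (-1.32) and SESN2 (-1.16) were lower in SNU-216 than in SNU-601, SESN2 was higher in KATO-III than in SNU-216 (0.95), and SESN1 was lower in KATO-III than in SNU-601 (-0.78).

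All 12 genes of NADPH supply, the cofactor of TXNRD1, NQO1 and the aldo-keto reductases, were tested. In KATO-III 6 passed, 5 of them higher in CD133+ cells, with ME1, the cytosolic malic enzyme (1.41, adjusted p = 0.000256), and NNT, the mitochondrial transhydrogenase (0.82, adjusted p = 7e-05), the largest. In SNU-216 7 passed, with PGLS of the pentose phosphate pathway lower (-1.06, adjusted p = 2.71e-05) and MTHFD2 of mitochondrial folate metabolism higher (0.71, adjusted p = 1.03e-05). In SNU-601 IDH1 was lower (-0.40, adjusted p = 0.00488) and IDH2 higher (0.22, adjusted p = 0.0305). Over the lines MTHFD2 (0.36, adjusted p = 0.0426) and IDH2 (0.22, adjusted p = 0.0322) passed, and did not with an estimated correlation (adjusted p = 0.222 and 0.306).

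Between lines, ME1 was below the floor on the 4 SNU-601 arrays and at least 32.02-fold higher in KATO-III and at least 14.2-fold higher in SNU-216. NNT was higher in KATO-III than in SNU-216 (2.16). IDH2 was higher in KATO-III than in SNU-601 (1.21), and MTHFD1 in SNU-216 than in SNU-601 (1.74).

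Among 13 tested aldo-keto, quinone and carbonyl reductases and related enzymes, the largest differences in KATO-III were those of AKR1C2 and AKR1C4 given above, and 7 passed. In SNU-216 6 passed, with UGDH, of glucuronic acid synthesis, higher (0.89, adjusted p = 0.00056) and AKR7A3, an aflatoxin aldehyde reductase, lower (-0.68, adjusted p = 3.43e-05). In SNU-601 3 passed, with CBR3 higher (0.79, adjusted p = 0.00681) and UGDH lower (-0.57, adjusted p = 0.0109). AKR1B1, the aldose reductase related to AKR1B10, was lower in KATO-III than in SNU-216 (-4.30, 19.8-fold) and SNU-601 (-4.63, 24.8-fold), so AKR1B1 and AKR1B10 ranked the lines differently. AKR1C4 was higher in KATO-III (4.64) and SNU-601 (4.97) than in SNU-216, values that are lower limits, since 3 of the 4 SNU-216 arrays were set to the floor. CBR1 was below the floor in KATO-III and at least 5.48-fold higher in SNU-601, and EPHX1 was 5.36-fold lower in SNU-216 than in SNU-601.

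Of 9 tested genes of heme, bilirubin and iron handling, which act around HMOX1, 2 passed in KATO-III, 2 in SNU-216 and 0 in SNU-601. BLVRA, the biliverdin reductase downstream of HMOX1, had the opposite directions to HMOX1, higher in CD133+ cells of KATO-III (0.32, adjusted p = 0.0138) and lower in those of SNU-216 (-0.77, adjusted p = 0.00021). SLC40A1, the iron exporter, was higher in CD133+ cells of KATO-III (0.25, adjusted p = 0.00743), and FTH1, the ferritin heavy chain, lower in those of SNU-216 (-0.95, adjusted p = 0.002). SLC40A1 was below the floor in SNU-216, and at least 46.0-fold and 62.0-fold higher in KATO-III and SNU-601. BLVRA was higher in KATO-III than in SNU-216 (12.2-fold) and SNU-601 (2.38-fold), FECH lower in KATO-III than in SNU-601 (-0.99), and BLVRB lower in SNU-216 than in SNU-601 (-3.25).

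Of 4 tested superoxide and hydrogen peroxide enzymes, CCS, the copper chaperone for SOD1, was lower (-0.96, adjusted p = 4.11e-05) and SOD2 higher (0.36, adjusted p = 0.001) in CD133+ cells of KATO-III, and both were reversed in SNU-601 (0.30, adjusted p = 0.0495, and -0.44, adjusted p = 0.00146). None passed in SNU-216. CCS was highest in SNU-216 (by 0.69 against KATO-III and 0.36 against SNU-601), and CAT was lower in KATO-III (-0.39) and SNU-216 (-0.29) than in SNU-601.

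Of 7 other tested NRF2 targets, PIR, which encodes the iron-binding protein pirin, was higher in CD133+ cells in every line, by 0.54 in KATO-III (adjusted p = 0.000834), 0.81 in SNU-216 (0.000151) and 0.36 in SNU-601 (0.0171), and over the lines by 0.57 (adjusted p = 0.008, and adjusted p = 0.149 with an estimated correlation). Its arrays read 4048 and 4046 against 2728 and 2855 in KATO-III, 1550.2 and 1607 against 868 and 936 in SNU-216, and 904 and 811 against 719 and 615 in SNU-601. No member had such a pattern, and 1.06% of all tested genes passed in 1 direction in all 3 lines. ABCC3, an export pump, was lower in CD133+ cells of KATO-III (-0.70, adjusted p = 4.58e-05). FBXO30 was higher in those of SNU-216 (0.36, adjusted p = 0.0323) and lower in those of SNU-601 (-0.69, adjusted p = 0.00306). Between lines, FBXO30 and PANX2 were below the floor in KATO-III and at least 11.9-fold and 11.2-fold higher in SNU-216, FBXO30 was at least 14.2-fold higher in SNU-601, and PANX2 was at least 11.2-fold higher in SNU-216 than in SNU-601. PIR was 4.45-fold higher in KATO-III than in SNU-601, and ABCC3 was 7.88-fold lower in SNU-216 than in SNU-601.

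**Figure D4:**
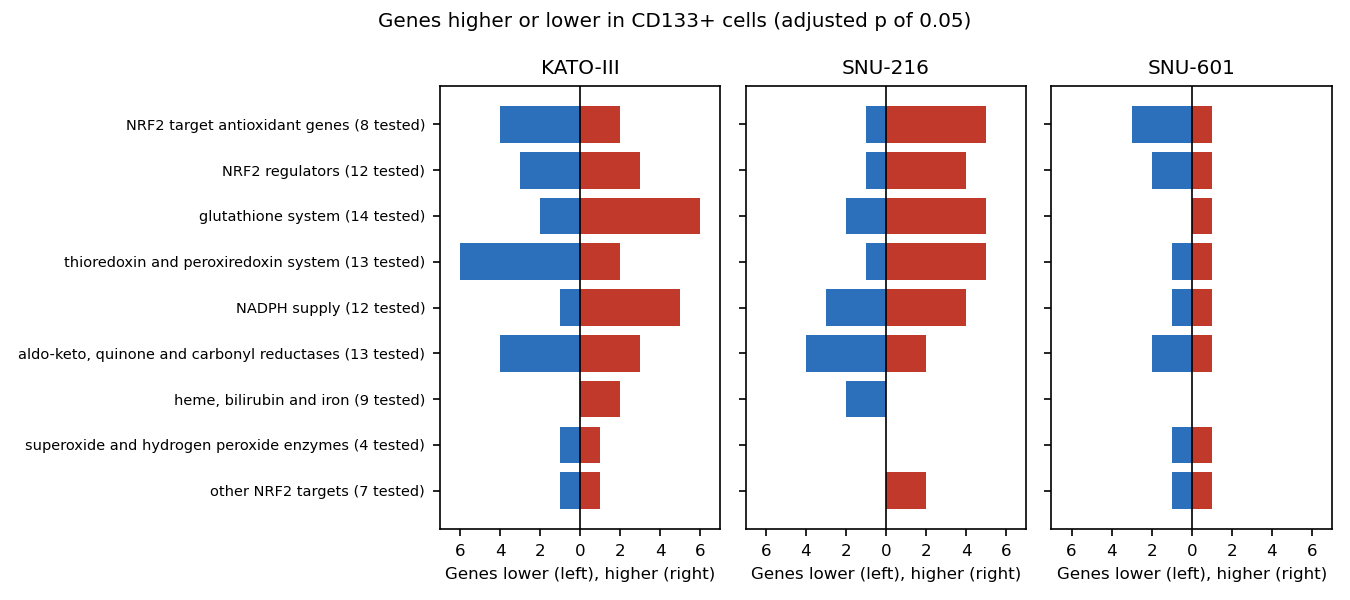
Number of genes that passed as higher (bars to the right) or lower (bars to the left) in CD133+ cells within each line, for the 8 tested members and the 8 lists of other pathway genes. The members and the thioredoxin list have more genes lower than higher in KATO-III and more higher than lower in SNU-216.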

How the data were processed

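The authors hybridised amplified, biotin-labelled RNA to BeadChips and deposited intensities after quantile normalization, not log-transformed, with 1 row per gene symbol; BeadStudio is named in the submitters' processing notes, without a version. Of 34688 rows 93 were empty. A background had been subtracted, since 32.1% of values were at or below 0, by a method not given in the sources used here, as is how probes of a gene were combined. Arrays were grouped by their titles. A description of the study names SNU201 where the array labels name SNU-216, and the labels were followed. Array medians lay between 26.0 and 27.1, and precision is limited by 2 arrays per population (median SD over genes 0.0669 to 0.0735 on the log2 scale).

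A floor of 32.7 (percentile 1 of the readings, without its sign) replaced lower intensities, and genes above it on at least 2 arrays (58.2%) were tested. limma 3.58.1 in R 4.3.3 was fitted with a mean-variance trend to a mean for each of 6 populations (6 residual degrees of freedom), or, over the lines, to fraction with line as a block (8), with Benjamini-Hochberg adjustment. "At least" folds are against the floor. The script was tested on simulated data. Promoter windows were read from RefSeq tables with Python 3.11.15 and pandas 2.3.3, and figures drawn with matplotlib 3.10.9. All members were named, and of each pathway list the 2 genes with the largest difference among those that passed per comparison, except 1 gene that is not reported here. Likeness was ranked for members that spanned more than 1 on the log2 scale, with 3 genes each. The members and lists were chosen with earlier results of these data known. Alternatives covered the floor, an offset, the filter, the trend, the normalization, the block, the arrays averaged or blocked by population, fits to 1 line, and leaving out each array.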

Additional observations from a re-analysis of the deposited data

Results flagged for a closer look

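For all 8 tested members the difference between CD133+ and CD133- cells varied with the line in the F-test of the interaction (44.4% of all tested genes passed it). The adjusted p was 0.000619 for NQO1, 1.9e-05 for HMOX1, 0.0108 for GCLC, 0.00226 for GCLM, 5.56e-06 for TXNRD1, 0.000138 for SRXN1, 5.12e-05 for AKR1B10 and 7.29e-07 for AKR1C3. Arrays set to the floor added no spread, so the AKR1B10 and AKR1C3 values may be too small. The AKR1B10 value rests on KATO-III and SNU-601 differing from each other and from an SNU-216 term that the floor set to 0. Each of these kept its side of the threshold in every alternative in which it was tested, the fits without 1 array included.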

How the results depend on the processing

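Across the alternatives no member's difference changed direction where it had passed. Fitted to the 4 arrays of a line alone, with fewer degrees of freedom, 1 member passed in SNU-601 in place of 4, and 3 members in place of 5 passed as higher in 1 line and lower in another. This fit also lost GCLC (adjusted p = 0.0782) and GCLM (0.0617) in KATO-III, GCLM in SNU-216 (0.128), and GCLM (0.158), TXNRD1 (0.0885) and SRXN1 (0.0905) in SNU-601. Leaving out 1 array gave between 3 and 6 members that passed in both directions. GCLM was also lost in SNU-216 and SNU-601 with no filter (0.0902 and 0.086) and no trend (0.0711 and 0.0685). Over the lines, 1 member, AKR1B10, passed with a floor of 100, and 1, again AKR1B10, passed a signal-to-noise ratio of -1 with line means taken out. The share of all genes past -1 in that setting is not given. With the arrays of a population averaged or with an estimated correlation between them, AKR1B10 did not pass over the lines (adjusted p = 0.796 and 0.236). Of the log2 differences of members, 514 kept their side of the threshold under the other alternatives, 12 no longer passed and 4 newly passed, and without 1 array 653 kept it, 17 no longer passed and 2 newly passed. Neighbouring populations that did not pass numbered 13 to 16 over the alternatives, and 15 to 16 without 1 array. These counts may include the AKR1B10 pair of SNU-216 below the floor, which the count in the order of populations leaves out.

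Replicate numbers did not pair the arrays, since same-numbered deviations correlated between -0.0116 and 0.0276. With the replicate block, GCLM was lost in SNU-216 (0.0736) and SNU-601 (0.0774), no other member's call changed, and the count of all genes over the lines went from 953 to 2. That count was 425 with no filter, 217 to 532 without 1 of the KATO-III or SNU-216 arrays, 0 with the arrays of a population averaged and 1 with populations as random blocks (consensus correlation 0.641). Within SNU-601 the count went from 3298 to 2176 and 2195 without replicate 1 of CD133+ or replicate 2 of CD133-, and the fits to 1 line gave 5251, 2469 and 209 genes in KATO-III, SNU-216 and SNU-601 in place of 7917, 5762 and 3298. Levels below the floor have no order, which limits AKR1C1 everywhere, AKR1B10 in SNU-216 and AKR1C3 in SNU-216 CD133- cells. Populations set to the floor also added no spread to the shared SE, so p-values of genes with such populations may be too small.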
